A study of Homo sapiens with 28 samples.

Results

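The genes joined to the immunoglobulin heavy chain locus by the t(4;14) translocation of multiple myeloma lie close together on the short arm of chromosome 4, in band 4p16. The accessible chromatin of WHSC1, FGFR3, LETM1 and TACC3 was described here across 22 untreated myeloma cell lines and across 6 of them after lenalidomide. Members were all regions of the deposited ATAC-seq table whose nearest annotated transcription start belonged to one of these genes, within the gene or away from it, which gave 22 of 154985 regions and 4 of 39817 genes. WHSC1 had 5 regions, FGFR3 4, LETM1 5 and TACC3 8. Regions are numbered along the chromosome within each gene, and all coordinates are GRCh37.

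In the translocation, a break in 4p16 usually falls between FGFR3 and WHSC1, at the start of WHSC1 or within it. WHSC1, also called NSD2 or MMSET, methylates histone H3 at lysine 36 and is overexpressed from the derivative chromosome 4. FGFR3, a receptor tyrosine kinase for fibroblast growth factors, moves to the derivative chromosome 14, next to the other part of the heavy chain enhancers, and its expression is lost in part of the cases. LETM1, a cation transporter of the inner mitochondrial membrane, lies between these genes, and TACC3, a protein that stabilises the mitotic spindle, lies on the telomeric side of FGFR3.

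Nuclei of myeloma cell lines were treated with a transposase that inserts sequencing adapters into open chromatin, and each line was assayed once in each condition, so no line has an error of its own. The untreated group comprised H1112, Karpas620, KMS11, KMS12BM, KMS12PE, KMS18, KMS20, KMS21BM, KMS26, KMS27, KMS28, KMS34, L363, LP1, MM1S, OCIMY5, OPM2, PCM6, PE1, RPMI8226, U266 and XG-6. The lenalidomide group held Karpas620, KMS27, L363, MM1S, OPM2 and RPMI8226 exposed to 10 µM of the drug and collected on day 3. The sample labels give the line and the treatment and no translocation. From general knowledge of the lines, and from the study's text for the IgL translocation of L363 and RPMI8226, 7 lines are known for t(4;14) (KMS11, KMS18, KMS26, KMS28, KMS34, LP1 and OPM2), 10 for another rearrangement, and for 5 (H1112, KMS20, PCM6, PE1 and XG-6) none was assumed. The assignment to t(4;14) is least certain for KMS26 and KMS28. Each line was given a single class, so a further rearrangement in a line of the 7 is not shown. The 10 lines were pooled whichever rearrangement they carry. Because this grouping does not come from the labels, it was used to describe ranges and no test was made between these sets of lines.

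Untreated libraries held 1599857 to 5564534 counts in regions and lenalidomide libraries 2168680 to 4248017. Levels are CPM, a region's counts scaled by the library's total in regions, with 95% Wilson intervals that cover counting error only. Plasma cell genes had summed levels of 285 to 815 CPM over 6 genes. Of these, SDC1, which encodes the surface marker CD138, TNFRSF17 and PRDM1 had peaks in 22 of 22 untreated libraries. XBP1 had them in 21, SLAMF7 in 20 and IRF4 in 19. Peaks were also called at the B cell genes PAX5 (22) and MS4A1 (16) and the T cell genes CD8A (21), CD3E (20) and CD3D (2). The myeloid genes LYZ, CSF1R and CD14 had them in 8, 4 and 3. Peak calls alone thus did not set the plasma cell genes apart. The summed T cell markers ranged from 37.0 to 145 CPM and the myeloid markers from 7.82 to 54.8 CPM, and the B cell genes MS4A1 and PAX5 together from 39.7 to 155 CPM. In bulk libraries, fewer cells with an open region and less opening per cell cannot be told apart, and gene copy number, which differs among myeloma lines, was not removed from any level.

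3 sequences are shown. They include the centres of the intergenic region past the end of FGFR3 and of the WHSC1 promoter region. The intergenic region varied most between lines among member regions with a mean of at least 5 CPM. The last, shown for comparison, is the stretch just upstream of FGFR3. No region of the table covers that last stretch, so its accessibility was not measured here. The nearest region, which begins past the start of FGFR3, held few reads in all lines. Each is the plus strand of GRCh37. In the FGFR3 intergenic window (chr4:1811867-1812166) capitals mark CAGCTG, an E-box, and TGCTGA, the core of the MAF site, found here on the minus strand. In the WHSC1 window (chr4:1872167-1872466) and the 250 bases before FGFR3 (chr4:1794770-1795019) capitals mark GGGCGG, the SP1 site, on either strand.
FGFR3 intergenic region, centre: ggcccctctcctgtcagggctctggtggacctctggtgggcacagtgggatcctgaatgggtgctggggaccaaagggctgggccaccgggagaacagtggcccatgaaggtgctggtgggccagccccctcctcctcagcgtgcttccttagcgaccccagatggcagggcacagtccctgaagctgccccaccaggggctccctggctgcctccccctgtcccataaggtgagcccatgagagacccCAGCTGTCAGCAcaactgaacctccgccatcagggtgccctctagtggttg
WHSC1 promoter region, centre: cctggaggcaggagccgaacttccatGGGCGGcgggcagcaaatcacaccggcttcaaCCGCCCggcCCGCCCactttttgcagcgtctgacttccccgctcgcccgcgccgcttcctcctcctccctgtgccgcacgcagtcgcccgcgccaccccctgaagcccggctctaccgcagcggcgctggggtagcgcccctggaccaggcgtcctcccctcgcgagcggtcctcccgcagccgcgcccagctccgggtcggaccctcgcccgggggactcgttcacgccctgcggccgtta
FGFR3 upstream: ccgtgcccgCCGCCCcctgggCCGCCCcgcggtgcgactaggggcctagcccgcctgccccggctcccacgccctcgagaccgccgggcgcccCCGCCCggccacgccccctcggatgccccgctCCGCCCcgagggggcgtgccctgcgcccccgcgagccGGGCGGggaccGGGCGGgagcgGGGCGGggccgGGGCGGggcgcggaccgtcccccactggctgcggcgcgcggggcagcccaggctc

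The 3 sequences differ in base composition. The FGFR3 intergenic window is 65.3% G and C with 4 CpG dinucleotides, the WHSC1 window 73.7% with 38, and the FGFR3 upstream stretch 86.8% with 40 in 250 bases. The WHSC1 window holds 3 SP1 sites and the FGFR3 upstream stretch 8. In 300-base windows at the centre of regions, searched on both strands, GGGCGG was present in 10 of the 22 member regions and in 14.7% of all 154985. CAGCTG was present in 7 member regions and 21.5% of all, TGCTGA in 5 and 25.3%, the Ikaros core TGGGAA in 7 and 21.3%, the AP-1 site TGANTCA in 3 and 15.2%, and CCAAT in 4 and 31.0%. In the FGFR3 intergenic window the E-box and the MAF core adjoin without overlap. The median G and C content of the member windows was 60.7%, against 47.0% of all windows.

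The intergenic region past FGFR3 was the member region that varied most among those with a mean of at least 5 CPM. It spans chr4:1811475-1812558, 1084 bp in the 2607 bp that separate the ends of FGFR3 and LETM1, which face each other there; it starts 876 bp past the annotated end of FGFR3 and stops 648 bp before that of LETM1, and overlaps no gene. Its level was 90.3 CPM in KMS18 (interval 77.4 to 105), 48.7 in KMS11, 42.4 in KMS34, 39.1 in OPM2, 37.6 in KMS28 and 36.3 in PE1 (28.0 to 46.9). It then dropped to 13.9 CPM in LP1 (9.84 to 19.6), and the remaining 15 lines lay between 0.624 in XG-6 and 10.6 in OCIMY5 (7.67 to 14.7). The first 6 lines therefore stood above the rest beyond counting error, and all of them except PE1 are known for t(4;14).

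**Figure D1:**
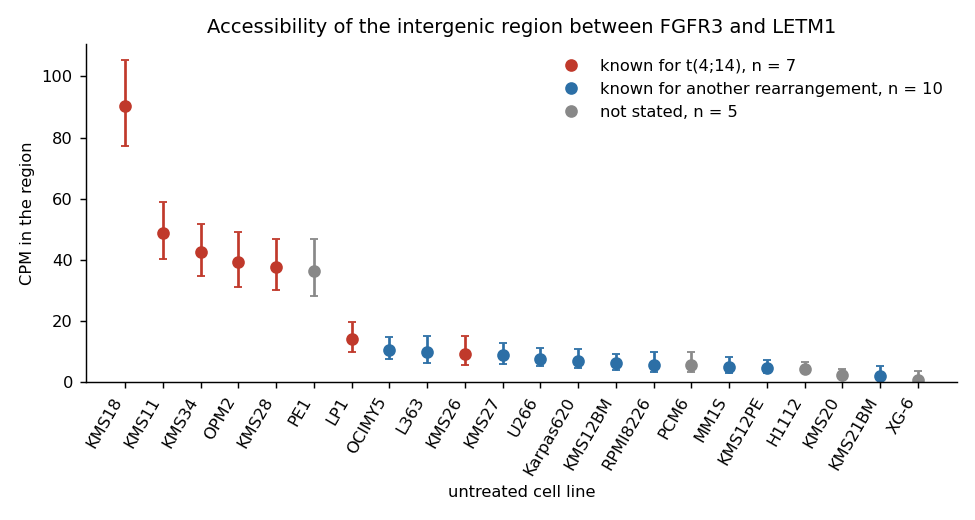
Level of the intergenic region between FGFR3 and LETM1 (CPM, vertical axis) in each of 22 untreated lines (horizontal axis, in falling order), coloured by known rearrangement. Points are single libraries and bars are 95% Wilson intervals for counting error; 6 lines lie between 36.3 and 90.3 CPM and the other lines at or below 13.9.

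By known rearrangement, the region ranged from 9.17 CPM in KMS26 through a median of 39.1 to 90.3 in the 7 lines known for t(4;14). In the 10 lines known for another rearrangement it ranged from 1.79 in KMS21BM through a median of 6.49 to 10.6. Of the 7 lines, 6 lay above all 10 others, and LP1, the lowest of those 6, overlapped OCIMY5 within its interval. The level of KMS26 fell inside the range of the other lines. Such an order, with at least 6 of the 7 lines above all 10, was seen in 637 of all 154985 regions (0.411%) and in 261 of the 41640 regions with a mean of at least 5 CPM (0.627%). Of the 22 member regions, 1 had it. An order with at least 4 of the 7 lines above all 10 was seen in 3 member regions and in 3.48% of all regions; the other two are an intronic FGFR3 region and WHSC1 region 5, in an intron at 41766 bp, with at most 5.05 CPM.

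The chromatin around the members moved between lines as well. The 141 regions of 4p16 within 1 Mb that belong to no member, set against their median over lines, ranged from 0.357 in PE1, 0.470 in XG-6 and 0.524 in KMS34 to 1.59 in KMS18. Divided by these surroundings, the intergenic region stood at 101 in PE1, 81.9 in KMS11, 80.9 in KMS34, 56.8 in KMS18, 40.7 in KMS28, 31.4 in OPM2, 17.6 in LP1 and 11.05 in KMS26. The 10 lines known for another rearrangement then lay between 2.34 and 8.97, and all 7 lines known for t(4;14) were above them. KMS26, whose assignment is uncertain, is the line by which this count differs from the 6 of 7 in CPM. The surroundings themselves had a median of 0.830 in the 7 lines and 1.12 in the 10. Dividing by them therefore raises the 7 lines, as a set, against the 10. For levels divided in this way, no share over all regions or genes was computed. The surroundings on the telomeric side over those on the centromeric side gave 0.773 to 1.702 in the 7 lines and 0.818 to 1.40 in the 10, ranges that overlap. The part of copy number in these levels was not tested.

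Peak calls and counts did not run in parallel at this region. It held a called peak in 12 of 22 untreated libraries. These included H1112, the library with the most counts in regions, at 4.31 CPM (2.90 to 6.42). OPM2 held none at 39.1 CPM (31.2 to 49.0). Over the lines its SD on the log2(CPM + 1) scale was 1.5, which ranked at the 78.3 percentile among the 1000 regions nearest to it in mean level. Several member regions with a mean below 5 CPM ranked higher by this measure, such as LETM1 region 5 (99.2), TACC3 region 4 (96.5) and FGFR3 region 3 (93.7).

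The region nearest to the start of FGFR3 was almost without reads. It lies wholly past that start, at chr4:1795034, which no region of the table covers, so the start itself was not measured. This promoter region (chr4:1795173-1795365) overlaps the first exon with its 5′ untranslated part and the first intron. It had a median of 0.610 CPM and reached 4.49 CPM, or 8 counts, in KMS18. It held a peak in 0 of 22 untreated libraries and in 1 of 6 lenalidomide libraries. An upstream region at -10848 bp (chr4:1784066-1784306) ranged from 0 to 4.47 CPM. Within the gene, an intronic region at 9322 bp (chr4:1804210-1804503) stood at 26.4 CPM in KMS28, 17.4 in KMS18, 5.22 in OPM2 and 3.68 in KMS11, all known for t(4;14), and at or below 2.38 in the remaining 18 lines. Only KMS28 and KMS18 were apart from the rest beyond counting error. OPM2 (2.83 to 9.60) and KMS11 (1.86 to 7.25) overlapped KMS21BM (0.926 to 6.12), known for another rearrangement. KMS34, KMS26 and LP1, also known for t(4;14), were at 1.73, 0.611 and 0.434 CPM. The median of this region over all lines was 0.853 CPM, and only in KMS28 did it hold a peak. Per kb, the mean level over lines was 5.46 CPM at the region nearest to the start, 10.6 CPM at the intronic region and 16.6 CPM at the intergenic region.

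**Figure D2:**
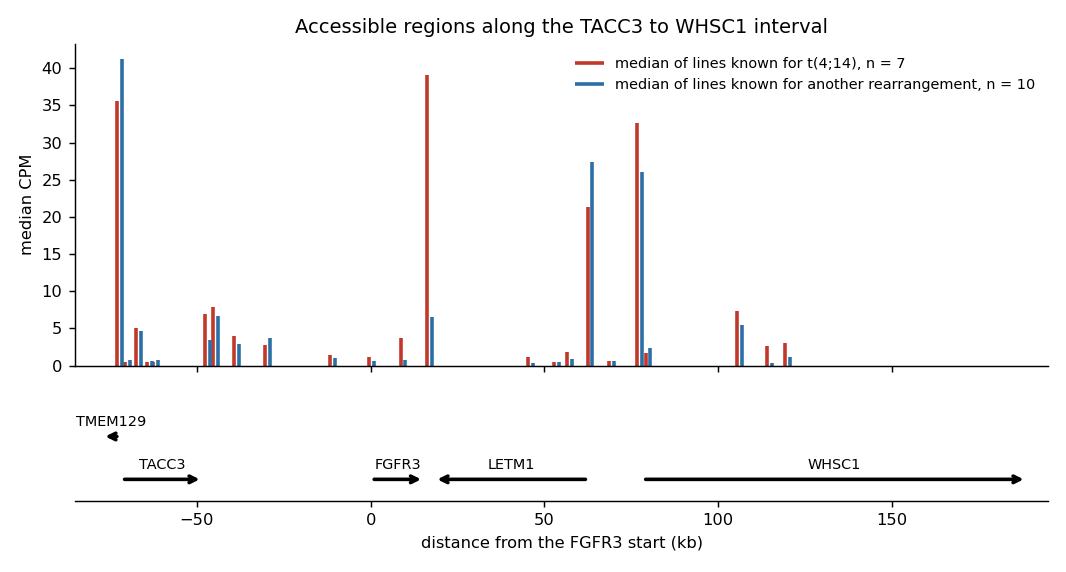
Median level (CPM, vertical axis) of each member region and of the shared TACC3 and TMEM129 start, by distance from the start of FGFR3 in kb (horizontal axis), in 7 lines known for t(4;14) and 10 known for another rearrangement, with arrows for the genes below. The bars differ most at the region just past the end of FGFR3 (39.1 against 6.49 CPM). The region nearest to the start of FGFR3 is close to 0 in both.

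WHSC1, the gene overexpressed through the translocation, differed less between lines than FGFR3. Its promoter region (chr4:1871747-1872885) lies just before the first annotated start and overlaps no gene. It averaged 25.7 ± 8.41 CPM (SD, n = 22 lines), from 12.0 in OPM2 and 12.5 in XG-6 through a median of 25.2 to 42.1 in KMS18. The lowest and highest lines are both known for t(4;14), and no neighbours in the order were separated beyond their intervals. The 7 lines known for t(4;14) ranged from 12.0 to 42.1 CPM (median 32.6) and the 10 others from 17.9 to 37.1 (median 26.0), so the ranges overlapped. A peak was called in 19 of 22 libraries, the exceptions being KMS11, KMS34 and PE1. Its SD on the log2(CPM + 1) scale, 0.49, ranked at the 18.7 percentile among regions of like mean.

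A further WHSC1 region lies inside the gene at an internal start (chr4:1900786-1901383, 27933 bp from the gene's start) and overlaps exons and introns. It ranged from 2.70 CPM in KMS27 through a median of 6.98 to 14.3 in KMS34 and 16.9 in PE1. The t(4;14) lines, at 5.10 to 14.3 CPM, overlapped the lines known for another rearrangement, at 2.70 to 10.0. 3 smaller regions of WHSC1 had medians of 1.03 to 2.70 CPM. Of these, the intronic region at 1678 bp reached 12.5 CPM in PE1, 11.3 in H1112 and 9.45 in KMS20 and was at or below 5.19 in the other 19 lines, and was named after its values were seen.

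The LETM1 promoter region (chr4:1857659-1858650) overlaps the start of the gene and its first exon. It averaged 29.2 ± 16.03 CPM (SD, n = 22 lines), was highest in KMS18 at 71.2 CPM (59.9 to 84.7), followed by L363 at 56.6 and KMS27 at 56.0, had a median of 25.0, and was lowest in KMS34 at 14.3 (10.2 to 20.1) and PE1 at 5.0 (2.53 to 9.87). PE1 was the single line apart from its neighbour beyond counting error. In contrast to FGFR3, the t(4;14) lines spread over most of the order, from 14.3 to 71.2 CPM, and 1 of 7 lay above all 10 lines known for another rearrangement, which ranged from 20.8 to 56.6. An intronic LETM1 region (chr4:1851850-1852463) was higher in a few lines, with 17.8 CPM in KMS12PE, 10.3 in KMS12BM and 6.56 in U266 against a median of 1.65, and those 3 libraries alone held a peak there.

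The start of TACC3 is shared with TMEM129, a ubiquitin ligase of the endoplasmic reticulum transcribed in the opposite direction, and the region covering it (chr4:1722404-1723417) is annotated to TMEM129. It is given for reference and is no member. It held a peak in 22 of 22 untreated libraries and ranged from 16.3 CPM in PE1 through a median of 39.4 to 107 in KMS18. The TACC3 regions proper lie within the gene or past its end and were low. The highest of them (chr4:1750337-1750738), in no gene, averaged 6.99 ± 2.53 CPM (SD, n = 22 lines), with 3.04 in KMS27, a median of 6.89 and 11.2 in KMS18. Next to it, chr4:1747947-1748246 ranged from 0.624 in XG-6 to 10.4 in H1112. A region in exon and intron (chr4:1732904-1733417), named after its values were seen, stood at 36.3 CPM in PCM6, 6.43 in KMS11 and at or below 3.04 in the other 20 lines. PCM6 was also the highest line at a second TACC3 region, with 10.7 CPM against a median of 0.575, and at a LETM1 region over exon and intron, with 13.02 against 0.453.

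Mean levels over lines were also taken per kb of region, which allows genes to be compared. They were 44.9 CPM at the TACC3 and TMEM129 start, 29.5 at the LETM1 promoter and 22.6 at the WHSC1 promoter. The region nearest to the FGFR3 start, which does not contain that start, had 5.46. KMS18 was the highest line at each of these 4 regions.

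**Figure D3:**
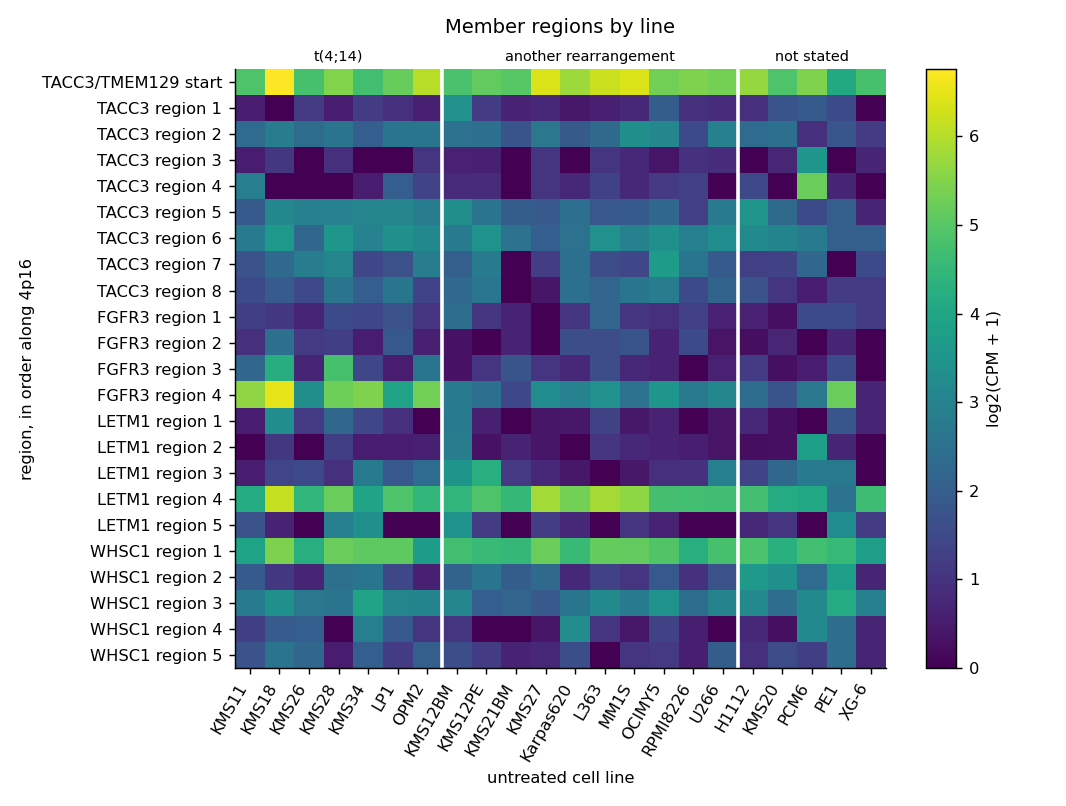
Level of the 22 member regions and of the shared TACC3 and TMEM129 start (rows, in order along the chromosome) in 22 untreated lines (columns, by known rearrangement), as log2(CPM + 1) in colour. The start regions of TACC3, LETM1 and WHSC1 are bright in nearly all lines. FGFR3 region 4, the intergenic region, is bright mainly in lines known for t(4;14) and in PE1. FGFR3 region 2, the one nearest to the start of FGFR3, stays dark.

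Summed over all its regions, FGFR3 ranged from 1.87 CPM in XG-6 through a median of 10.9 to 113 in KMS18, with an SD of 1.37 on the log2(CPM + 1) scale. It was followed by KMS28 at 67.3, KMS11 at 54.7, KMS34 at 46.3, OPM2 at 45.9, PE1 at 40.6 and LP1 at 19.1. Intervals of neighbours in this order were apart in 2 of 21 places, below KMS18 and below PE1. The lines known for t(4;14) lay at 11.6 to 113 CPM and the lines known for another rearrangement at 5.36 to 17.3, with 6 of 7 above all 10. LP1 overlapped L363 at 17.3 CPM within its interval, and KMS26, at 11.6, lay inside the other range. By gene, such an order was seen in 154 of 39817 genes (0.387%). The order rests mainly on the intergenic region, where 6 of 7 lines lay above all 10. At the region nearest to the FGFR3 start it was 2 of 7, KMS18 and LP1. Their intervals (2.27 to 8.85 and 1.19 to 5.68 CPM) overlapped that of MM1S (1.16 to 4.96), known for another rearrangement. At the intronic FGFR3 region, which the authors' annotation also counts as promoter, it was 4 of 7.

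WHSC1 summed to 21.2 CPM in XG-6 through a median of 40.9 to 61.9 in KMS34, with an SD of 0.43, and 0 of 21 neighbours were apart. KMS34, KMS18, KMS28 and LP1, at 45.6 to 61.9 CPM, were above all 10 lines known for another rearrangement, which ranged from 24.1 to 45.4, whereas OPM2, KMS11 and KMS26 were at 24.0, 26.6 and 31.2. LP1 at 45.6 CPM (37.7 to 55.2) and L363 at 45.4 (36.9 to 55.8) had nearly the same interval. The share of all genes with at least 4 of the 7 lines above all 10 was not computed. With TMM scaling 2 of the 7 lines lay above all 10, and with the promoter region alone in place of all regions 1 of 7. Divided by the surroundings the count was again 4 of 7, but with KMS11 (44.8) above the highest of the others (41.3) and KMS18 (38.1) below it. LETM1 summed to 20.2 CPM in KMS11 through a median of 32.0 to 83.6 in KMS18, with an SD of 0.55. TACC3 summed to 8.73 CPM in XG-6 through a median of 26.4 to 62.8 in PCM6, with an SD of 0.63, and KMS18 for LETM1 and PCM6 for TACC3 were the lines apart from their neighbours. For TACC3, the t(4;14) lines, at 23.8 to 36.6 CPM, lay within the range of the lines known for another rearrangement, 10.7 to 43.9. Divided by the surroundings, TACC3 had a median of 39.7 in the 7 lines and 22.05 in the 10, and 3 of 7 lay above all 10.

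**Figure D4:**
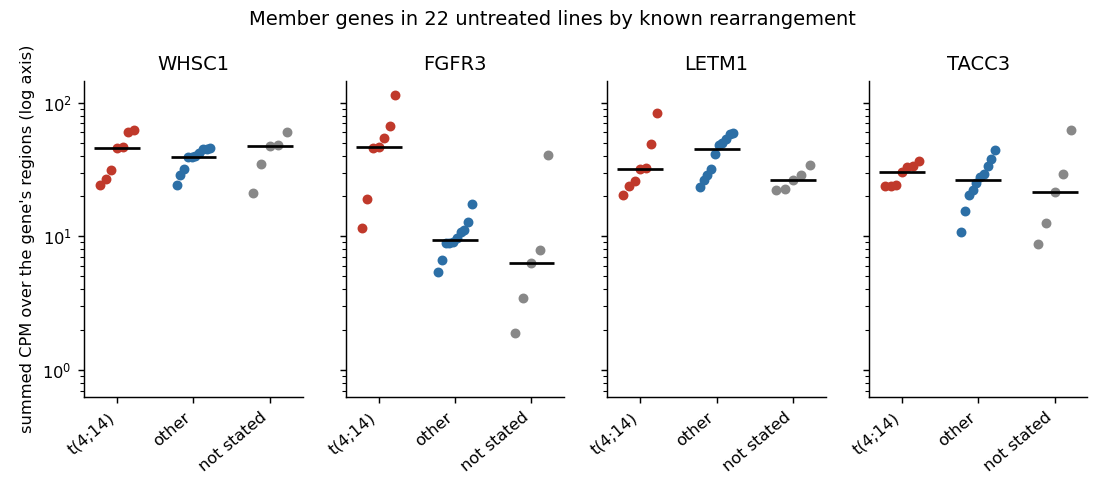
Level of each member gene, summed over its regions (CPM, log axis), in untreated lines known for t(4;14) (n = 7), for another rearrangement (n = 10) or with none stated (n = 5). Points are lines and bars are medians; FGFR3 has medians of 46.3, 9.40 and 6.29 CPM, with KMS26 inside the range of the lines known for another rearrangement, and the ranges of all 4 genes overlap between sets.

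Across the 22 lines the members were weakly alike. As a description over lines that share library depth and copy number, Pearson's r of summed log2(CPM + 1) was 0.46 for WHSC1 and LETM1, 0.42 for WHSC1 and FGFR3, 0.35 for WHSC1 and TACC3, 0.34 for LETM1 and TACC3, 0.27 for FGFR3 and TACC3 and 0.24 for FGFR3 and LETM1. Spearman's rho lay between 0.18 and 0.48. Without KMS18 the value of FGFR3 and LETM1 was 0.002, and without KMS11 it was 0.36. Without XG-6 the value of FGFR3 and TACC3 was 0.09 and that of WHSC1 and TACC3 0.17. LETM1 and TACC3 followed the surrounding 4p16 regions (r of 0.60 and 0.59), while FGFR3 (-0.02) and WHSC1 (0.11) did not. Divided by the surroundings, LETM1 and TACC3 had an r of 0.09. Of 6 pairs compared among the starts of WHSC1, of LETM1 and of TACC3 and TMEM129 and the FGFR3 intergenic region, those of LETM1 and of TACC3 and TMEM129 had the highest r (0.86), and the FGFR3 intergenic region was not like the LETM1 promoter beside it (r = -0.03).

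The genes most like each member were ranked by r over the 22 lines among 21693 genes with a mean of at least 10 CPM that lie outside 5 Mb of the members. For FGFR3 they were the noncoding genes RP5-827L5.2 on chromosome 20 (r = 0.80), RP11-33I11.2 (r = 0.78) and AC096669.1 on chromosome 2 (r = 0.73). RP5-827L5.2 had a median of 25.7 CPM in the lines known for t(4;14) and 1.71 in those known for another rearrangement, and AC096669.1 had 21.6 and 4.62. The choice by likeness to FGFR3 over the same lines fixes part of this difference in advance. For WHSC1 they were C12orf44 (r = 0.81), IQCB1 (r = 0.81) and SLU7 (r = 0.77), with like medians in both sets of lines, such as 95.1 and 91.4 CPM for IQCB1. For LETM1 they were PUF60 (r = 0.83), ZNHIT2 (r = 0.81) and CHRAC1 (r = 0.81), of which PUF60 had 26.1 CPM in the t(4;14) lines and 36.5 in the others. For TACC3 they were CYB5R2 (r = 0.74), KCNQ1OT1 (r = 0.72) and GRHL1 (r = 0.72).

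Lenalidomide, which turns the cereblon ubiquitin ligase against the Ikaros factors IKZF1 and IKZF3, was compared with no treatment in the 6 paired lines, of which OPM2 is the single line known for t(4;14). No member region or gene passed the test. edgeR's quasi-likelihood test with the cell line as a block and a Benjamini-Hochberg adjusted p below 0.05 called 2036 of 37732 regions tested (5.40%) and 667 of 27593 genes (2.42%). Of the 22 member regions 6 passed the filter on low counts and 0 were called, with 1 at an unadjusted p below 0.05, and DESeq2 called 0 with 0 at that unadjusted level. Of the 4 genes 0 were called by either tool, with 0 at an unadjusted p below 0.05. At these shares, 0 of 6 and 0 of 4 are near what the whole table shows. The median log2 change was 0.04 over the 6 member regions and -0.01 over all regions tested.

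FGFR3 went from 45.9 to 34.4 CPM in OPM2, 17.3 to 12.0 in L363, 10.8 to 8.61 in Karpas620, 8.93 to 7.62 in MM1S, 9.78 to 10.9 in KMS27 and 8.97 to 10.6 in RPMI8226. OPM2 remained the highest of the 6 lines on treatment, and 2 of 6 pairs were higher. The log2 change was -0.18 ± 0.19 (SE; 95% interval -0.55 to 0.18; edgeR adjusted p = 0.74). At the intergenic region, OPM2 went from 39.1 to 28.0 CPM and the other 5 lines lay at 4.81 to 9.69 CPM untreated and 5.48 to 8.21 on lenalidomide. Its log2 change was -0.20 ± 0.22 (SE; interval -0.62 to 0.22; edgeR adjusted p = 0.716), and without OPM2 it was -0.10.

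WHSC1 went from 39.5 to 31.7 CPM in Karpas620, 44.9 to 36.3 in KMS27, 45.4 to 42.9 in L363 and 42.2 to 34.1 in MM1S, and from 24.0 to 25.3 in OPM2 and 24.1 to 35.1 in RPMI8226. The log2 change was -0.06 ± 0.14 (SE; interval -0.33 to 0.21; edgeR adjusted p = 0.906). Its promoter had a log2 change of 0.04 ± 0.15 (SE; edgeR adjusted p = 0.946). The internal start of WHSC1 was lower in 6 of 6 pairs, from 5.20 to 1.956 CPM in Karpas620, 2.70 to 1.37 in KMS27, 8.16 to 5.07 in L363, 5.84 to 4.72 in MM1S, 7.30 to 4.97 in OPM2 and 4.25 to 3.77 in RPMI8226, which are 4 to 17 counts per library. Its log2 change was -0.60 ± 0.27 (SE; interval -1.13 to -0.07), with an unadjusted p of 0.0322 and an edgeR adjusted p of 0.229, which did not pass, and adjusted p ran from 0.193 to 1.00 over 10 alternatives.

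LETM1 went from 26.1 to 27.6 CPM in OPM2, 26.4 to 32.5 in RPMI8226, 41.3 to 44.6 in Karpas620 and 50.1 to 65.0 in MM1S, and from 58.7 to 52.0 in KMS27 and 59.2 to 53.0 in L363. The log2 change was 0.11 ± 0.12 (SE; interval -0.13 to 0.34; edgeR adjusted p = 0.779). TACC3 lay between 15.5 and 30.3 CPM untreated and between 16.4 and 31.6 on lenalidomide, with a log2 change of 0.02 ± 0.15 (SE; interval -0.27 to 0.32; edgeR adjusted p = 0.973). The shared TACC3 and TMEM129 start changed by -0.09 ± 0.09 on the log2 scale. These intervals leave room for changes of up to about a log2 of 0.55 downward for FGFR3.

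**Figure D5:**
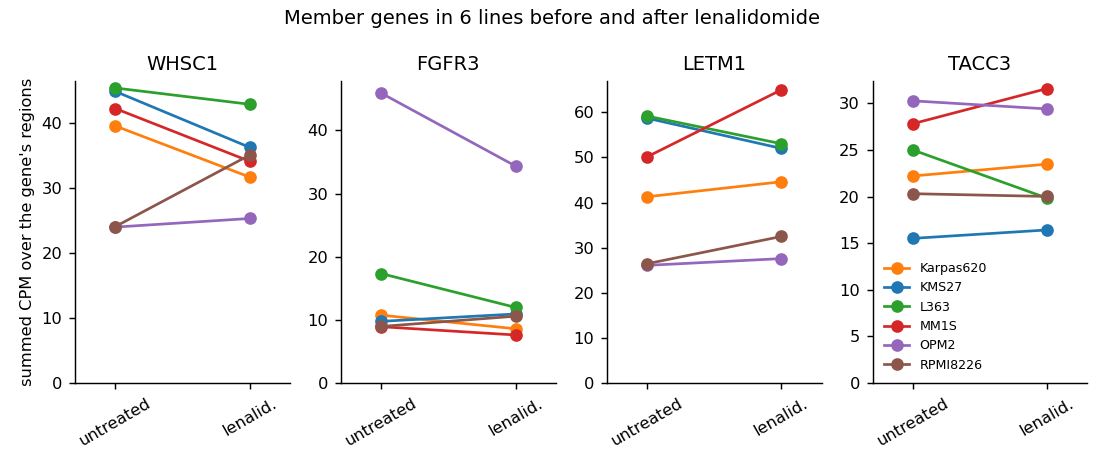
Level of each member gene summed over its regions (CPM, vertical axis) without and with lenalidomide (horizontal axis); lines join the 2 libraries of each of 6 cell lines. OPM2 is far above the other lines for FGFR3 in both conditions, and no gene moves in 1 direction in all 6 lines.

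Genes of the same pathways likewise gave no call at the gene level, with a background of 2.42%. In FGF signalling 0 of 20 genes tested passed in either direction, with 0 at an unadjusted edgeR p below 0.05 and 0 by DESeq2. The smallest p there belonged to DUSP6, a phosphatase that limits ERK signalling, with a log2 change of 0.11 ± 0.07, to the receptor adaptor FRS2 with 0.17 ± 0.12 and to DUSP4 with -0.12 ± 0.09. In lysine 36 methylation of histone H3, 0 of 15 passed, with 1 at an unadjusted p below 0.05 and 0 by DESeq2: PSIP1, a reader of the mark, had -0.20 ± 0.09 and was lower in 6 of 6 pairs, EZH2, the opposing lysine 27 methyltransferase, had -0.17 ± 0.10, and WHSC1L1, a relative of WHSC1, had -0.19 ± 0.12. Among 7 relatives and partners of TACC3 and LETM1, 0 passed by edgeR and 0 by DESeq2, and each test had 1 at an unadjusted p below 0.05. By edgeR, TACC2 had 0.32 ± 0.12 and was higher in 6 of 6 pairs (edgeR adjusted p = 0.199). CLTC, the clathrin heavy chain, had 0.13 ± 0.11 and CKAP5, which binds TACC3 at the spindle, -0.12 ± 0.13. The list around the members on 4p16 held 22 gene names, WHSC2 and NELFA among them, which need not all be distinct genes. Of these 14 were tested and 0 passed, with 0 at an unadjusted p below 0.05 and 0 by DESeq2. RGS12 (0.16 ± 0.11), CTBP1 (-0.12 ± 0.09) and ZFYVE28 (0.10 ± 0.08) had the smallest p. The median log2 change was 0.04, -0.09, -0.02 and -0.06 in the 4 lists, against 0.00 over all genes tested.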

How the data were processed

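Data were ATAC-seq profiles from 22 lines without treatment and from 6 of those on lenalidomide. The authors aligned reads to GRCh37 and called peaks per library at a q of 0.01, and the submitters' processing notes list Bowtie2 2.2.6, SAMtools 1.7 and MACS2 2.1.0.20151222. They merged peaks into 154985 autosomal regions and deposited raw counts per region, RPM values, which equal the CPM computed here, and a score of whole numbers, which the files do not define and which was read as the number of a library's own peaks in the region. The authors marked putative PCR duplicates with SAMtools; whether marked reads were left out of the counts, and whether read ends were shifted, is not given in the sources used here.

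Counts were summed by gene as annotated by the authors. The members, gene lists and tests were chosen with earlier results of these data known. All regions of the members were kept; those named in full were the promoter regions, the 2 highest by mean CPM per gene, up to 5 with the largest SD among those with a mean of at least 5 CPM, and any called after lenalidomide. Genes like a member were the 3 with the highest Pearson's r, and up to 3 genes per list were those with the smallest p. Promoter regions lay within 2.5 kb upstream to 500 bp downstream of a start. Gene positions came from GENCODE lifted to GRCh37.

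Lenalidomide was tested with edgeR 4.0.16 in R 4.3.3 (limma 3.58.1) on the raw counts. Libraries were scaled by TMM, low features were removed with filterByExpr within condition, and the cell line was a block. The SE is the log2 change over the root of its F value. The pairs come from the same line, and same-line libraries deviated together from their condition means (r of 0.83 to 0.90 in 6 pairs, against -0.36 to 0.11 between different lines). With the block, p-values weigh the mean change against how that change differs from line to line, with 1 library per line and condition. The alternatives were DESeq2 1.42.0, library totals, no filter, at least 10 counts in each library, no block, and each line left out; for levels, TMM, a pseudocount of 0.1, promoters only, the tallest region, scaling by surroundings and each line left out. The fit was tested on simulated data. One gene of the cell type marker lists is not reported here.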

Additional observations from a re-analysis of the deposited data

Results flagged for a closer look

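In each member gene and in the 6 tested member regions, the 6 lenalidomide libraries and the 6 changes between pairs were examined for a line far from the others by Dixon's criterion, 20 sets in all, of which chance flags about 1 in 20. A line stood apart in 2 sets, OPM2 in both: FGFR3 on lenalidomide was at 34.4 CPM in OPM2 against 12.0 in the next line, a gap of 0.837 of the whole range, and the intergenic region past FGFR3 was at 28.0 CPM against 8.21, a gap of 0.879. The gene's sum contains that region, so the 2 results are not independent. Without treatment the same line was at 45.9 and 39.1 CPM, and OPM2 is the single line of the 6 known for t(4;14).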

How the results depend on the processing

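No member region or gene was called under any alternative of the lenalidomide test, the replicate block included, and WHSC1, FGFR3 and LETM1 kept the sign of their change in 11 of 11 alternatives and TACC3 in 10. The number of regions called, 2036, was 839 with DESeq2, 4092 when unfiltered, 587 under the stricter minimum of 10 counts per library and 0 when the replicate block was dropped, where 440 had an unadjusted p below 0.05. The number of genes called, 667, was 282 with DESeq2, 350 under that minimum and 0 when the replicate block was dropped, where 170 had an unadjusted p below 0.05. The block changed no call of a member. Leaving out a line gave 1067 to 2503 regions, with 1067 without MM1S and 1310 without KMS27, and 306 to 892 genes, with 306 without L363, 338 without OPM2, 356 without KMS27 and 402 without MM1S; the cause was not tested.

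The SD of log2(CPM + 1) over lines was 0.49 for WHSC1 and 0.78 for LETM1 at the promoter, which is also their tallest region, 0.70 for FGFR3 at the promoter, and 0.75 at the nearest and 0.50 at the tallest region for TACC3. Scaled by surroundings it was 0.65 for WHSC1. The median of log2(CPM + 1) fell with fewer regions, to 4.71 for WHSC1, 0.69 for FGFR3, and 0.88 and 2.98 for TACC3 at its nearest and tallest region. Leaving out a line moved the SD between 1.24 and 1.40 for FGFR3, 0.40 and 0.44 for WHSC1, 0.49 and 0.56 for LETM1 and 0.56 and 0.65 for TACC3. Scaled by surroundings, r for LETM1 and TACC3 was 0.0947, against 0.34. The authors' RPM gave the same values. Depth limits the regions with low counts, of which 16 of 22 did not enter the lenalidomide test, and each line is 1 library.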
